A study of Mus musculus with 58 samples.

Results

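The 6 genes described here, Scn1a, Scn3a, Scn8a, Scn2b, Scn3b and Scn4b, encode subunits of the voltage-gated sodium channel, and they were taken by name from the 25648 genes of a count table. Each library held the RNA of 1 parvalbumin (PV) cell from ventral subiculum, where the hippocampus sends its output, in mice. The mice carried PV-Cre and the Ai9 reporter, so that a fluorescent protein marked cells in which the parvalbumin gene drove Cre recombinase, and the cytosol of each marked cell was drawn into a patch pipette. Of 58 cells, 54 had the quality label Pass, 27 from male and 27 from female animals, and these were summed into 4 pools, each of 1 sex and 1 postnatal day (P): 14 male cells at P35, 13 male cells at P36, 17 female cells at P40 and 10 female cells at P42. Pool values are listed below in that order of age, males before females. The labels name no other genotype and no treatment, so male and female groups share the same reporter cross, with 4 male and 3 female animals, and cells are not tied to animals. Both female pools were thus older than both male pools, so sex cannot be told apart from age, and the p-values below measure only the spread between these pools.

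A sodium channel is built from 1 large alpha subunit, which forms the pore and opens on depolarisation, and smaller beta subunits, which adjust its gating and its placement in the membrane. Scn1a and Scn8a encode alpha subunits that carry the action potential in mature neurons, and loss of Scn1a function in PV interneurons is a known cause of epilepsy in mice. Scn3a encodes an alpha subunit best known from the embryonic and newborn brain. Of the beta subunits, those of Scn2b and Scn4b are bound to the alpha subunit by a disulphide bond, while that of Scn3b is bound without one, and the Scn4b subunit is known for its part in resurgent sodium current in fast-firing neurons.

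Total counts were 2.05 to 52.3 M per Pass cell (M standing for 10 to the power 6), with a median of 11.5 M, and 123 to 229 M per pool. The labelled cell type was checked against its markers. Gad1, the main enzyme of GABA synthesis, was at 1337 counts per M library counts (CPM) or more in all 54 cells. Pvalb itself was at 1.18 CPM in the lowest cell, 86.9 in the median and 788 in the highest, and 14 cells had at least as much Sst, the marker of another interneuron class, as Pvalb. Markers of other cells were present in part of the libraries: the sum of 7 excitatory neuron markers reached 1229 CPM, in male cell 7, and the sum of 6 oligodendrocyte markers reached 12812 CPM, in a male cell at P36. In P40 females the sum of 3 blood markers reached 23053 CPM in 1 cell and the sum of 6 microglia markers 8227 CPM in 1 cell. The highest sums were 7354 CPM for 8 markers of other interneurons, 1078 CPM for 5 astrocyte, 633 CPM for 3 oligodendrocyte precursor and 128 CPM for 4 endothelial markers. Male cell 7 held the lowest Scn1a and Scn8a levels of all cells.

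Scn1a and Scn8a, the main alpha subunits, were found in every cell. Scn1a ranged from 47.5 CPM in male cell 7 to 535 CPM in female cell 16, with a median of 281 CPM. Its pool medians by age were 275, 224, 312 and 264 CPM. These medians lie close together beside the range within each pool, which was 121 to 403 CPM in the pool with the narrowest one, that of P36 males.

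Scn8a ranged from 11.8 CPM in male cell 7 to 444 CPM in male cell 18, with a median of 141 CPM. Its pool medians by age were 182, 116, 110 and 156 CPM. The sexes overlapped: the highest pool median and the next to lowest were both male.

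To compare 2 genes, levels were divided by the length of their merged annotated exons (CPM per kb). On this scale the median was 25.3 for Scn1a and 8.94 for Scn8a. Scn1a was above Scn8a in 50 of 54 cells, or 92.6% (exact 95% binomial interval 82.1% to 97.9%, which covers counting error only). The median ratio was 2.69-fold, which is 1.43 on the log2 scale with an SD of 0.81 over cells. In 37 cells Scn1a led by at least 2-fold, in 17 the genes were within 2-fold of each other, and in 0 of 54 cells did Scn8a lead by 2-fold, which allows a share of up to 5.56% (a limit of 3 cells for a count of 0). The highest ratio, 9.16-fold, was in female cell 2.

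The 4 cells with Scn8a on top were all male. They were cells 8 and 20 at P35 and cells 9 and 25 at P36, and in male cell 8, the farthest of them, Scn8a led by 1.26-fold. Scn1a led in 12 of 14 cells and 11 of 13 cells of the male pools, and in 17 of 17 and 10 of 10 of the female pools. Median ratios were 2.09, 2.39, 3.39 and 2.31-fold by age, so the P42 females lay between the male pools and only the P40 females stood above both. The length used for each gene bears on the count, though not on the direction: with coding length, or with no length correction, Scn1a led in 46 of 54 cells (85.2%), and 2 of the 8 exceptions were then female.

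**Figure D1:**
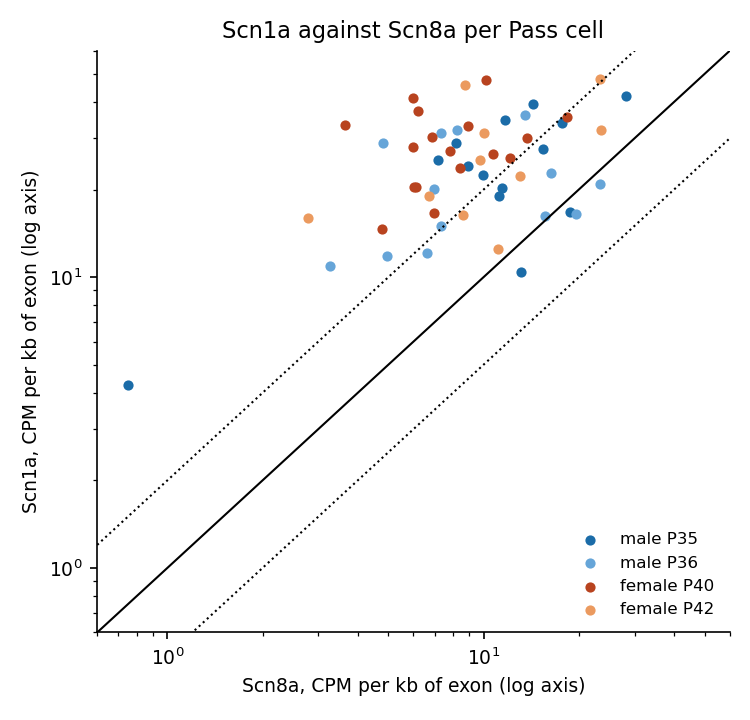
Scn1a level (vertical axis) against Scn8a level (horizontal axis), both in CPM per kb of exon on log axes, 1 point per Pass cell, coloured by pool. The solid line marks equal levels and the dotted lines a 2-fold difference either way: 50 of 54 points lie above the solid line, none lies below the lower dotted line, and male cell 7 stands alone at the lower left.

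Scn1a and Scn8a were not strongly tied to each other from cell to cell. On log2(CPM + 1), Pearson's r was 0.49 and Spearman's rho 0.29 over 54 cells. Without the 2 cells farthest from the median of Scn8a, r was 0.25, so the larger value of r rests on those cells. Within the pools, by age, rho was 0.38, 0.38, 0.14 and 0.50. The cells share animals and library preparation, and these correlations are descriptions. The values that the authors normalized still hold the depth of each cell, and on them rho for the same pair was 0.76.

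Scn3a, the alpha subunit of the young brain, was near the lower end of detection. Its range was 0 to 29.9 CPM and its median 1.31 CPM; 51 cells held at least 1 count, 25 cells were under 1 CPM and 9 reached 10 CPM. The highest cells were male cell 11 at 29.9 CPM, female cell 14 at 27.4 CPM and male cell 23 at 27.0 CPM. Its pool medians by age were 4.60, 2.24, 0.231 and 0.289 CPM. Both male medians were above both female medians, and the cells of the pools overlapped widely. Male cell 11 held 20.7% of all Scn3a counts. The smallest count that is told from 0 differs by cell: in female cell 7, with 2.41 M counts and none for Scn3a, a count of 0 allows up to 1.24 CPM.

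**Figure D2:**
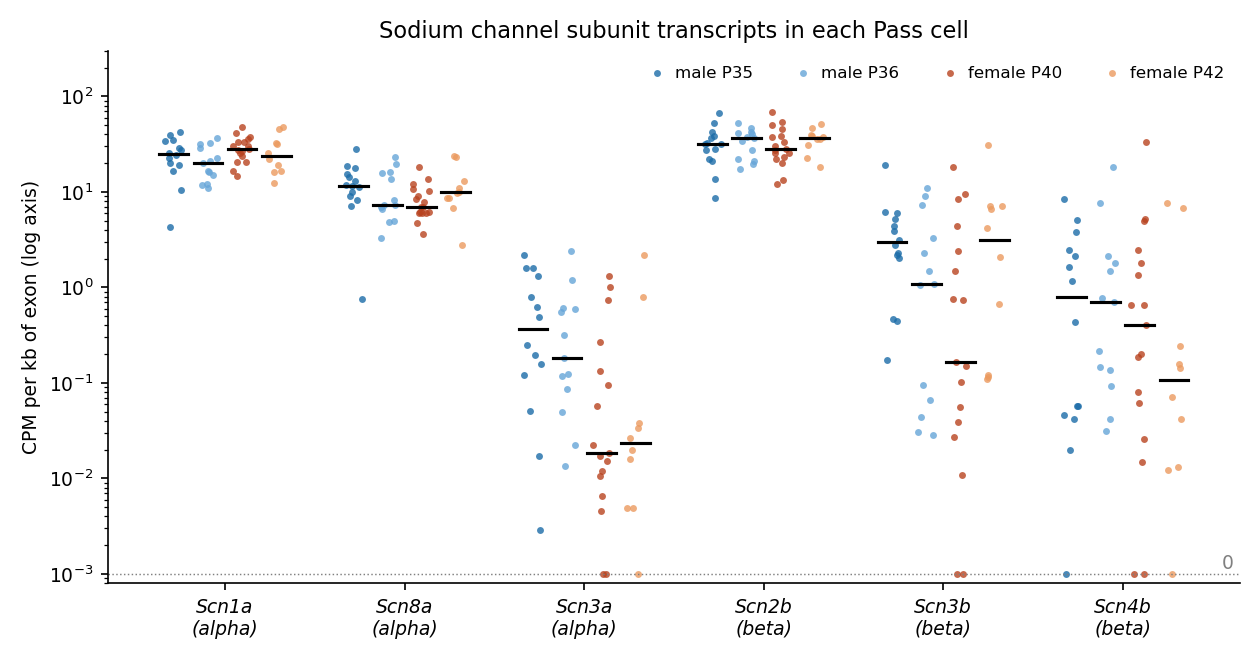
Level of each gene in CPM per kb of exon (vertical log axis) in every Pass cell, 1 point per cell, by gene and pool, with a black bar at the pool median; cells with no count are drawn on the dotted line marked 0. Scn1a, Scn8a and Scn2b form tight bands, whereas Scn3a, Scn3b and Scn4b spread far more widely and reach down to 0.

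Among the beta subunits, Scn2b was the constant one. It ranged from 40.3 CPM in male cell 20 to 321 CPM in female cell 4, with a median of 154 CPM and pool medians of 147, 172, 132 and 169 CPM. Its SD over cells, 0.61 on log2(CPM + 1), was lower than that of Scn1a at 0.65 and Scn8a at 0.88. Among 2503 genes with a mean CPM within 2-fold of its own, 19.5% had a lower SD. Male cell 20, the lowest cell, was also 1 of the 4 cells with Scn8a above Scn1a, and it held 344 CPM of the excitatory neuron marker Slc17a7.

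Scn3b varied most. Its range was 0 to 167 CPM, with a median of 9.65 CPM, an SD of 2.17 on log2(CPM + 1), and 27 of 54 cells at 10 CPM or more, a level chosen after the values were seen. Its highest cells were female cell 14 at 167 CPM, male cell 5 at 105 CPM and female cell 26 at 101 CPM, while 18 cells were under 1 CPM. Of 4342 genes of like mean level, 79.9% had a lower SD. Scn3b was therefore spread more widely than most genes of its level, whereas Scn1a (50% lower), Scn8a (52.9%), Scn3a (39.2%) and Scn4b (60.0%) were not far from the middle.

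Pool medians of Scn3b by age were 16.1, 5.93, 0.901 and 17.1 CPM. The lowest and the highest were both female, and each pool held at least 1 cell under 1 CPM and exactly 1 cell above 60 CPM.

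Scn4b was low in most cells and high in a few. Its range was also 0 to 167 CPM, with a median of 1.15 CPM; 25 cells were under 1 CPM and 14 reached 10 CPM. Female cell 25 at 167 CPM and male cell 14 at 90.3 CPM were the highest, and female cell 25 alone held 37.1% of all Scn4b counts and 77.3% of those of the P40 females. Its pool medians by age were 3.99, 3.53, 2.0 and 0.532 CPM.

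Scn2b and Scn4b both lie on the plus strand of chromosome 9 (GENCODE vM21 on GRCm38, chr9:45117782-45130070 and chr9:45138395-45154152), with 8.32 kb between them, and yet their median levels were 33.1 and 0.231 CPM per kb. Their promoter windows are shown because genes so near each other differ so much in level. They are RefSeq sequences (GRCm38.p6) from 250 bases before to 50 after the RefSeq start, 5′ to 3′. They span chr9:45117626-45117925 for Scn2b and chr9:45138374-45138673 for Scn4b, and capitals mark each CG dinucleotide. The RefSeq starts differ from the GENCODE starts above. Most of the Scn4b window lies inside the GENCODE gene, whereas the Scn2b window lies about evenly on both sides of its GENCODE start. The windows thus cover unlike parts of the GENCODE genes.
Scn2b: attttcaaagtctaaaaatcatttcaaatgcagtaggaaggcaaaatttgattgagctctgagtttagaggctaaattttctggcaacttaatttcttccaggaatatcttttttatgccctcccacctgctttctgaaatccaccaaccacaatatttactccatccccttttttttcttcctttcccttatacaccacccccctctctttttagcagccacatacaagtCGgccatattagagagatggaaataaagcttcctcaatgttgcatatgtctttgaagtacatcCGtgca
Scn4b: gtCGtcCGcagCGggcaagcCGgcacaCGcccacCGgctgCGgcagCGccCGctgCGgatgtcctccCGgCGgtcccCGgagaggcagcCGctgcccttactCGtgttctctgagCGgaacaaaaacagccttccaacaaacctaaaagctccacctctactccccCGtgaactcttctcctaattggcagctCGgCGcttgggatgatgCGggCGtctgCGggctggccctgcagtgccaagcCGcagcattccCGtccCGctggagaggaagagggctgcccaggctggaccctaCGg
The window of Scn2b, the gene found in every cell, held 2 CG dinucleotides and 38.3% G and C. That of Scn4b held 26 CG dinucleotides and 66.3% G and C. Of all 32851 windows of this length in the table, 94.6% held at least 1 CG, the median number was 7, 14.1% had fewer than Scn2b and 15.5% had more than Scn4b. The alpha subunit windows also differed, with 5 CG dinucleotides for Scn1a on chromosome 2 and 38 at the upstream start of Scn8a on chromosome 15. These counts describe the sequences, and their part in the levels was not tested.

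The other members also have fixed places in the same annotation. Scn1a lies at chr2:66270778-66440840 and Scn3a at chr2:65457118-65567627, both on the minus strand. Scn8a lies at chr15:100869858-101045938 and Scn3b at chr9:40269217-40291618, both on the plus strand. Counts for a gene come from its exons as the authors counted them, with a strand setting that the sources used here do not give.

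Per length, Scn2b led the 3 beta genes in 51 of 54 cells, or 94.4%. Scn3b led in female cells 14 and 26, and Scn4b led in female cell 25. Second place went to Scn3b in 31 cells, to Scn4b in 19 and to Scn2b in 3, and in female cell 5 Scn3b and Scn4b were both at 0. With coding length, with the longest transcript and with no length correction, the shares of cells led were again 94.4% for Scn2b, 3.70% for Scn3b and 1.85% for Scn4b.

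As a share of the summed CPM per kb of the 3 genes, Scn2b made up a median of 90.3% (lowest 39.8%, in female cell 26). Scn3b made up a median of 4.63% and at most 57.4%, and Scn4b a median of 0.799% and at most 58.9%. Scn3b was above 25% in 8 cells and Scn4b in 3.

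**Figure D3:**
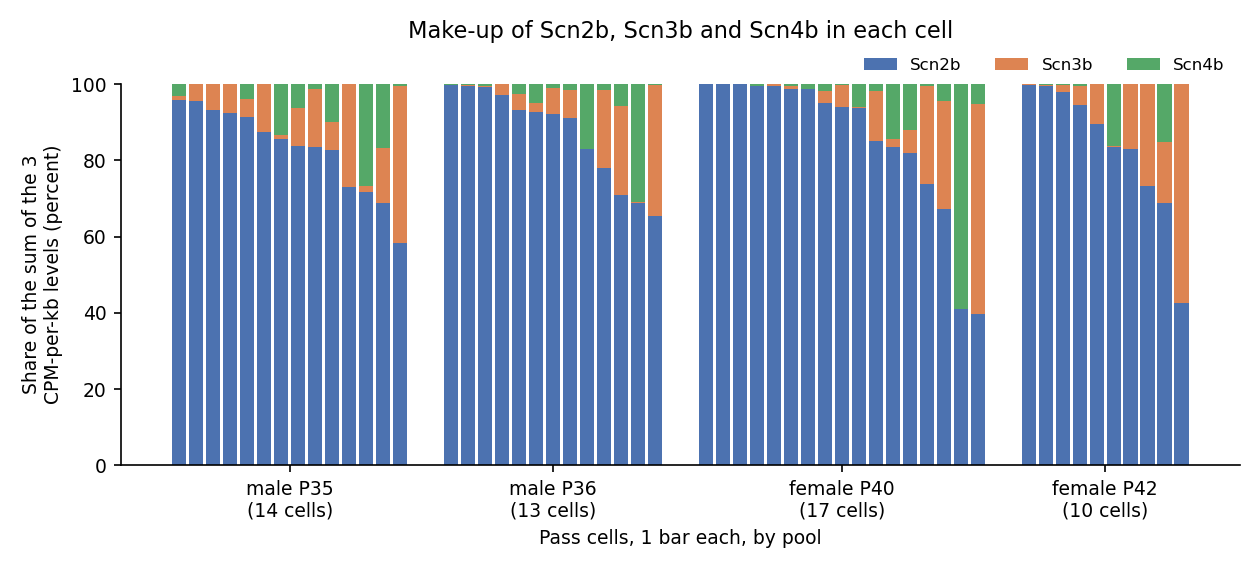
Make-up of the summed Scn2b, Scn3b and Scn4b level (CPM per kb of exon) in each Pass cell, in percent, 1 stacked bar per cell, sorted by the Scn2b share within each pool. Scn2b fills most of nearly every bar, and the bars with a large rest are mostly filled by either Scn3b or Scn4b and seldom by both.

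At 10 CPM, 5 cells held both Scn3b and Scn4b, 22 held Scn3b alone, 9 held Scn4b alone and 18 held neither. With every cell thinned to 2.05 M counts, the numbers were 5, 21, 7 and 21. The levels of Scn3b and Scn4b showed little relation across cells, with r of -0.11 and rho of -0.01 over 54 cells. Scn2b and Scn3b had r of -0.25 and rho of -0.33, and the sign was not the same in each pool, with rho of 0.18, -0.02, -0.59 and -0.87 by age.

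The order of the 6 median levels per kb of exon was Scn2b (33.1), Scn1a (25.3), Scn8a (8.94), Scn3b (1.77), Scn4b (0.231) and Scn3a (0.106). Some neighbours in this order changed places in many cells. Scn2b was above Scn1a in 34 of 54 cells, Scn3b above Scn4b in 33, and Scn4b above Scn3a in 35. Per kb of exon these pairs were thus not apart beyond the spread over cells. With coding length Scn4b was above Scn3a in 45 cells and Scn3b above Scn4b in 35. Scn8a was above Scn3b in 44 cells, though in 33 with coding length. The step from Scn2b to Scn1a depends on the length used, because only 645 of the 4656 exon bases of Scn2b are coding: with coding length Scn2b was above Scn1a in 54 of 54 cells, and with the longest transcript Scn1a was above Scn2b in 30.

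Median levels of Scn3b, Scn4b and Scn3a were higher in the cells with at least as much Sst as Pvalb than in the others. In those 14 cells Scn3b lay between 0.242 and 167 CPM (median 28.4 CPM), and 11 of them reached 10 CPM. In the other 40 cells it lay between 0 and 60.2 CPM (median 4.99 CPM), and 16 reached 10 CPM. The ranges overlapped. Both cells led by Scn3b, female cells 14 and 26, were among the 14 cells, with 175 and 589 CPM of Sst. Median Scn3a was 6.74 CPM in the 14 cells and 0.625 CPM in the 40, and median Scn4b was 5.51 and 0.965 CPM, with 3 of 14 and 11 of 40 cells at 10 CPM or more. Median Scn1a was lower in the 14 cells, at 212 beside 291 CPM, as was median Scn8a, at 121 beside 155 CPM. Median Scn2b was 175 and 145 CPM. The 14 cells came from all pools, 4 and 5 from the male ones and 2 and 3 from the female ones. The split was made after the values were seen and was not tested.

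Along the level of Pvalb itself, Scn1a had r of 0.27 and rho of 0.31 over 54 cells. By age of pool rho was 0.28, 0.35, -0.25 and 0.61, so the sign turned in 1 pool. Scn3a and Scn3b ran the other way, with rho of -0.29 and -0.25, and each was negative in 4 of 4 pools. Scn8a (rho 0.02), Scn2b (0.08) and Scn4b (0.04) showed little relation to Pvalb, and for Scn8a the value within the P40 females (-0.42) was opposite to the 0.30, 0.34 and 0.50 in the other pools. All of these are weak, and Pvalb varied more from cell to cell than 98.6% of 2948 genes of its level. Among markers of other cells, Scn2b had rho of -0.37 with Slc17a7 of excitatory neurons, negative in 3 of 4 pools. Scn4b had rho of -0.34 with the summed markers of other interneurons, negative in 4 of 4 pools. Other pairs were of like size. Scn2b had rho of -0.30 with the summed astrocyte markers (negative in 4 of 4 pools), and Scn4b 0.31 with the summed blood markers (positive in 2 of 4). The part of such cells in the levels was not tested.

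The sexes were compared over the pools with edgeR's quasi-likelihood test and Benjamini-Hochberg adjustment over 14933 genes. None of the 6 genes was called, where 0.0134% of all genes were (Ddx3y and Eif2s3y, which lie on the Y chromosome). At an unadjusted p under 0.05 the count was also 0 of 6 beside 5.51% of all genes. DESeq2 called 0 of 6 beside 1.25% of all genes, and had 0 of 6 at an unadjusted p under 0.05 beside 8.63%. Pool levels of Scn1a were 289 and 252 CPM in males and 323 and 281 CPM in females, a log2 difference of 0.16 (SE 0.18), with overlapping pools. By age, pool levels of Scn8a were 203, 157, 140 and 187 CPM, a log2 difference of -0.14 (SE 0.23), and those of Scn2b were 139, 169, 138 and 167 CPM, a log2 difference of -0.01 (SE 0.21). In both genes a pool of each sex was above a pool of the other.

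Pool levels of Scn3a were 7.71 and 7.73 CPM in males and 1.99 and 2.74 CPM in females, so the sexes did not overlap, as for 33.9% of all genes tested. The log2 difference, female minus male, was -1.70 (SE 0.99; edgeR adjusted p = 0.975). It ranged from -3.75 to -1.13 over 15 alternatives and was negative in all 15. Without male cell 11 it was -1.30, and without the cells with Sst at or above Pvalb it was -3.75. Beside these, the summed level of 8 markers of other interneurons had pool medians of 323, 313, 157 and 369 CPM by age, and that of 7 excitatory neuron markers 164, 89.0, 135 and 106 CPM, and their part in the Scn3a difference was not tested. Scn3b (0.18, SE 0.46) and Scn4b (0.24, SE 0.65) were not called either. Their pool levels overlapped between the sexes, at 24.3, 16.3, 20.2 and 25.8 CPM for Scn3b and 9.13, 16.7, 21.5 and 9.06 CPM for Scn4b by age, and without female cell 25 the difference of Scn4b was -0.83.

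Membrane values come with the labels for most cells: rm, cm and vrest, whose names are taken as membrane resistance, membrane capacitance and resting potential and whose units are not stated. Each was given for 49 Pass cells, rm from 88 to 805, cm from 18 to 102 and vrest from -72 to -48. Within each pool the cells were split at the median label, and the summed counts of the high and low groups were compared over the 4 pools, with the pool as a block. The labels are not independent of each other, since rm and cm had rho of -0.80 over 49 cells. No member was called in any of the 3 comparisons by edgeR's quasi-likelihood test, where 0.00715% of all genes were called for rm, 0.00716% for cm and 0.0% for vrest. At an unadjusted p under 0.05 edgeR had 0 of 6 members in each comparison, beside 5.34%, 4.34% and 2.40% of all genes for rm, cm and vrest. DESeq2 called 0 of 6 in each, beside 2.14%, 1.16% and 0.38% of all genes. At an unadjusted p under 0.05 DESeq2 had 2 of 6 members for rm (Scn3b and Scn4b), 1 of 6 for cm (Scn3b) and 0 of 6 for vrest, beside 12%, 10.5% and 8.73% of all genes.

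Of the beta genes, Scn3b had a positive difference along rm that did not pass the test. In the low-rm groups of the pools it was at 17.2, 5.92, 5.69 and 26.5 CPM by age, and in the high-rm groups at 15.8, 27.8, 32.7 and 31.5 CPM. The high group was above the low group in 3 of 4 pools. The log2 difference was 1.22 (SE 0.64), with an unadjusted p of 0.086 and an adjusted p of 0.945 by edgeR. It was positive under all 15 alternatives, from 0.76 to 1.69. Cell by cell, Scn3b had r of 0.41 and rho of 0.42 with rm over 49 cells, and r was 0.32 without the 2 farthest cells. The relation differed between pools, with rho of -0.09, 0.84, 0.17 and 0.48 by age.

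Other measures moved with rm as well. Cells with Sst at or above Pvalb made up 3 of 26 in the low-rm and 8 of 23 in the high-rm group, and without them the Scn3b difference was 1.60. The sum of all 8 markers of other interneurons was 9.29 to 3736 CPM (median 310) in the low and 49.9 to 1113 CPM (median 253) in the high group, and none of these markers was at 0 in all cells. Median Pvalb was 147 and 46.3 CPM in the low and high groups, and its log2 difference was -1.38 (SE 0.46; unadjusted p = 0.0149, not called by edgeR after adjustment). Median total counts per cell were 9.57 and 13.1 M, though in the P35 males they ran the other way, at 14.1 and 6.52 M. With all cells thinned to an equal total the Scn3b difference was 1.08. Scn3b had rho of 0.37 with the number of genes detected. That number itself had rho of 0.13 with rm over 49 cells, and -0.34, 0.46, 0.34 and 0.35 in the pools by age. The summed level of 3 oligodendrocyte precursor markers was 0.315 to 209 CPM (median 3.81) in the low-rm and 0.111 to 633 CPM (median 20.8) in the high-rm group, and its pool-centred rho with Scn3b was 0.29 over 54 cells, positive in 4 of 4 pools. Of these markers Olig1 was found in all 54 cells, and Pdgfra and Cspg4 in 36 and 22. The part of these markers, of the number of genes detected and of Pvalb level in the Scn3b difference was not tested.

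**Figure D4:**
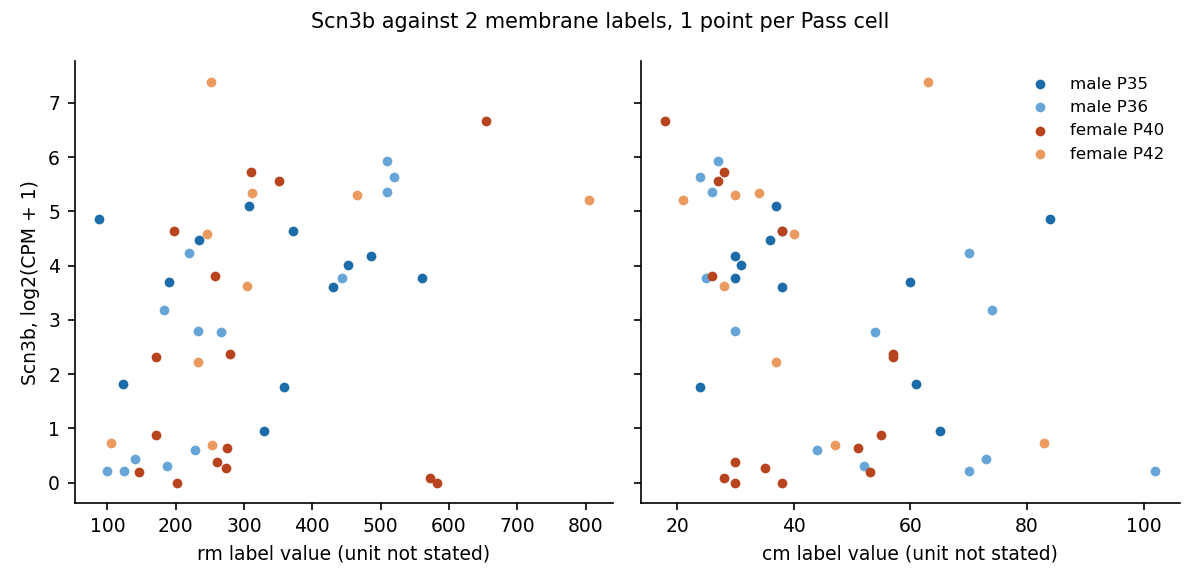
Scn3b level as log2(CPM + 1) (vertical axis) against the rm label (left) and the cm label (right) as the labels give them, 1 point per Pass cell with that label, coloured by pool. Scn3b-poor cells lie mostly at the lower rm values, female cells 28 and 29 at high rm being exceptions. High Scn3b is mostly found at the low end of cm, female cell 14 being an exception.

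With cm the sign was opposite. Scn3b was at 21.1, 22.2, 31.2 and 28.2 CPM in the low-cm groups by age and at 11.7, 8.29, 5.47 and 33.1 CPM in the high-cm groups, so the high group was lower in 3 of 4 pools. The log2 difference was -1.14 (SE 0.60; unadjusted p = 0.0901, edgeR adjusted p = 1). Over 49 cells, rho was -0.39, and it was negative in 4 of 4 pools, from -0.65 at P36 to -0.01 at P35. Because rm and cm run against each other, this is not separate evidence from the rm result.

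Scn4b had the opposite sign along rm and was not called either. It was at 11.9, 26.7, 58.9 and 11.5 CPM in the low-rm groups by age and at 11.2, 4.94, 5.43 and 9.53 CPM in the high-rm groups. The high group was lower in 4 of 4 pools, and 13.9% of genes tested had 1 direction in all pools. The log2 difference within pools was -0.09, -2.44, -3.44 and -0.28 by age. The median over single cells ran the other way, at 1.54 CPM in the low-rm and 3.53 CPM in the high-rm group, with 8 of 26 and 5 of 23 cells at 10 CPM or more. The log2 difference over pools of -1.54 (SE 0.75) had an unadjusted p of 0.0678 and an adjusted p of 0.941 by edgeR. Single cells moved it: it was -0.66 without female cell 25 and -2.72 without female cell 17, and rho over 49 cells was -0.02.

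Scn1a and Scn8a were not called between membrane groups. For rm the log2 difference was -0.24 (SE 0.17) for Scn1a and -0.29 (SE 0.23) for Scn8a. For cm it was 0.22 (SE 0.21) and 0.13 (SE 0.27), and for vrest 0.01 (SE 0.18) and 0.07 (SE 0.23). Single pools differed from these values: in the P42 females, Scn1a was at -0.60 for rm and 0.79 for cm and Scn8a at -0.93 and 1.07, while in the P35 males Scn1a was at 0.03 and -0.42 and Scn8a at -0.32 and -0.33. The Scn1a to Scn8a ratio had rho of 0.12 with rm, -0.23 with cm and 0.11 with vrest over 49 cells. Scn2b differed by -0.08, -0.03 and 0.15 on the log2 scale for rm, cm and vrest, each less than its SE.

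Scn3a had a negative difference along vrest, with less of it in the high, less negative group of each pool. It was at 9.19, 9.42, 1.90 and 2.58 CPM in the low-vrest groups by age and at 5.39, 4.75, 0.235 and 0.486 CPM in the high-vrest groups. For vrest, 12.3% of genes tested had 1 direction in all pools. The log2 difference of -1.77 (SE 1.26) was not called (edgeR adjusted p = 0.999), and the high group of the P42 females was a single cell. Scn3b (-0.95, SE 1.34) and Scn4b (-0.50, SE 1.87) had SEs larger than their differences. Along rm and cm, Scn3a differed by -0.18 (SE 1.02) and 1.30 (SE 1.16), and along cm Scn4b differed by -0.08 (SE 0.86), none of them called.

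**Figure D5:**
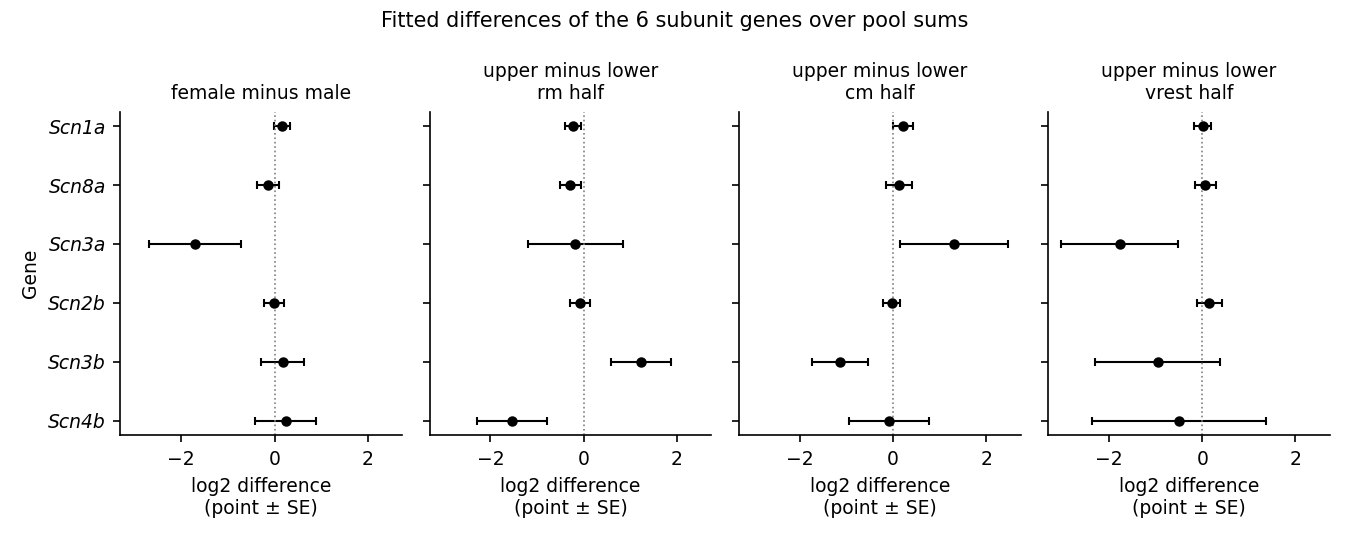
Log2 difference of each gene (horizontal axis, point with SE bar) over pool sums in 4 comparisons, female minus male and high minus low group by rm, cm and vrest. The points of Scn1a, Scn8a and Scn2b sit close to 0 in each panel, and the bars of Scn3a, Scn3b and Scn4b are wider.

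Another sodium channel gene places the 6 in context. Scn2a, an alpha subunit best known from excitatory neurons and listed in the table as Scn2a1, was at 5.13 to 279 CPM with a median of 64.3 CPM. Its log2 difference was 0.23 for female minus male, 0.68 for rm (unadjusted p = 0.0276), -0.33 for cm and 0.60 for vrest, and edgeR called none of these after adjustment. The median over all genes tested was 0.00, 0.00, -0.03 and -0.09 in these comparisons.

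Genes whose proteins anchor or modify sodium channels were listed as partners. None of the 9 was called, and their median log2 difference was -0.05, -0.03, -0.19 and 0.04 in the same 4 comparisons. Fgf12, an intracellular regulator of sodium channels, had a median of 209 CPM, and Cntn1, an adhesion protein, had a median of 208 CPM and a difference of 0.56 for rm and -0.43 for cm. None of 5 potassium channel genes of fast-spiking cells was called, with medians of 0.10, -0.25, 0.05 and -0.05. Kcnc2 (median 580 CPM) and Kcnc1 (338 CPM) were their most abundant members, and Kcnc1 differed by -0.38 between rm groups (unadjusted p = 0.0219).

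The genes most like each member across the 54 cells were found by Spearman's rho on pool-centred values over 9702 genes, or 9703 for Scn3a. For Scn8a it was Ptprs (rho 0.64), for Scn2b Pcsk1n (0.63) and Ldhb (0.56), for Scn4b Nefm (0.56), for Scn1a Arfgef2 (0.53), for Scn3b AW551984, Slc15a3 and Ly6h (each 0.57), and for Scn3a Zufsp, Hbp1 and Bcl11b (each 0.49). Nefm encodes a neurofilament protein and Ldhb a lactate dehydrogenase subunit. The genes named were picked for the highest rho of all genes searched. Picking alone raises rho, and the level that unrelated genes would reach was not computed. Likeness was uneven between pools: that of Scn8a and Ptprs was 0.07 in 1 pool and 0.85 in another. No member was among the 3 genes most like another member. Only genes with a mean of at least 10 CPM and a count in at least 27 Pass cells were searched. Scn3a, with a mean of 5.19 CPM, could therefore not appear.

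The 4 cells labelled Fail, with 0.545 to 5.08 M counts, were left out of all comparisons. In 3 of them Scn1a was at 220 to 446 CPM and above Scn8a at 82.1 to 233 CPM, as in most Pass cells. In female cell 10 both were low, at 53.8 and 58.7 CPM, while Scn2b was at 170 CPM. Per kb of exon Scn1a was above Scn8a in this cell too, at 4.82 beside 3.72 CPM per kb.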

How the data were processed

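Per the labels' protocols, the cytosol of each cell was made into a library (Nextera XT). The submitters' processing notes name STAR, edgeR and the build GRCm38, with no versions, and the sources used here do not give the counting tool or its strand setting. The authors deposited whole-number counts per gene, used here as the measure, and a table of normalized values, a signal equal to each count times 1 factor per cell (0.866 to 1.316), used only as an alternative. No molecular identifiers are named, so intervals cover counting error only. The deposited neurexin isoform table was not used.

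Levels per cell are CPM of its own total, or CPM per kb of merged GENCODE vM21 exons. Counts of Pass cells were summed per pool, or per pool and membrane group (label at most, or above, the pool median), and tested with edgeR 4.0.16 (TMM, quasi-likelihood F test, two-sided, Benjamini-Hochberg adjusted p under 0.05) in R 4.3.3, on genes with a count in at least 10 Pass cells that passed edgeR's filterByExpr. The pool was a block for membrane groups. Pool levels are CPM on TMM-scaled totals. The SE is the log2 difference divided by the square root of F. Alternatives were DESeq2 1.42.0, RLE factors, no filter, thinned cells, no block, limma 3.58.1 on pool means, leaving out each pool, and leaving out single cells. The fits were tested on simulated data. Correlations use log2(CPM + 1). The members, the gene lists, the markers and the rule for named genes (the 6 members, the 2 most abundant genes of each list and the 3 genes most like each member) were chosen with earlier results of these data known. The extreme cells were named for their values. Part of the list of other sodium channel genes is not reported here.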

Additional observations from a re-analysis of the deposited data

Results flagged for a closer look

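Female cell 14 of the female P42 pool stood far from the other 9 cells of that pool in 2 genes. Its Scn3b level was 167 CPM, with 39.3 CPM in the next cell, and its Scn3a level was 27.4 CPM, with 9.77 CPM in the next. The gap to the next cell was 0.768 and 0.644 of the pool's whole range, above the limit of 0.466 for 10 cells. The 6 genes were looked at in this 1 pool, the only one small enough for this rule. Chance flags about 1 in 20 such groups if values follow a normal distribution. The CPM values were skewed, with 8 of 10 cells under 1 CPM for Scn3a and a median of 17.1 CPM for Scn3b. That rate therefore does not hold for these 2 genes. The cell had 5.61 M counts, 51.7 CPM of Pvalb and 175 CPM of Sst.

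In 2 of 18 pairs of a gene and a membrane label, the male pools moved one way and the female pools the other. For Scn1a, the log2 difference between the high-rm and low-rm groups was 0.03 in male P35 and 0.05 in male P36, and -0.42 in female P40 and -0.60 in female P42. For Scn2b, the difference between the cm groups was -0.39 in male P35 and -0.15 in male P36, and 0.15 in female P40 and 0.29 in female P42. The male differences of Scn1a were small. Such a pattern over 4 pools can arise by chance, and the share of all genes that show it was not counted. The difference between the sexes was not tested in either case.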

How the results depend on the processing

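The 6 genes were called in none of the comparisons under any alternative run. The number of all genes called was less stable. It was 2 for the sexes, 1 for rm (Vip), 1 for cm (Vip) and 0 for vrest by edgeR, and 179, 299, 162 and 53 by DESeq2. It was 111 for the sexes with no filter on low counts, and 0 for rm and 0 for cm with no block for the pool. Leaving out 1 pool in turn gave 0 to 21 for the sexes (21 without female P40) and 0 to 1 for rm, cm and vrest. Without male cell 11, an alternative chosen after seeing the data like all those on single cells, it was 1 for the sexes and 0 for rm. The causes were not tested.

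Of the alternative log2 differences of members, 35 changed sign and 253 did not, and none belonged to a called difference. For the sexes, leaving out 1 pool gave -0.35 to 0.06 for Scn8a, -0.15 to 0.13 for Scn2b, -0.07 to 0.50 for Scn3b and -0.50 to 0.75 for Scn4b. Scn2b was 0.07 with thinned cells, 0.07 by limma, 0.05 without female cell 3, 0.01 without female cell 25 and 0.13 without the cells with Sst at or above Pvalb. Scn3b was -0.07 without female cell 3 and -0.42 by limma, and Scn4b was -0.83 without female cell 25 and -0.49 by limma. For rm, leaving out 1 pool gave -0.58 to 0.31 for Scn3a and -0.29 to 0.06 for Scn2b; Scn3a was 0.13 without male cell 11, and Scn2b was 0.06 with thinned cells. For cm the ranges were -0.19 to 0.36 for Scn8a, -0.14 to 0.11 for Scn2b and -0.61 to 0.70 for Scn4b, and Scn8a was -0.01 with thinned cells. For vrest they were -0.08 to 0.08 for Scn1a, -0.11 to 0.25 for Scn8a, -0.14 to 0.34 for Scn2b, -2.11 to 0.18 for Scn3b and -2.06 to 0.97 for Scn4b. With thinned cells Scn1a was -0.12 and Scn8a -0.05, and with no block Scn4b was 0.15. For the sexes Scn1a and Scn3a kept their sign under every alternative run, and for vrest Scn3a did. So did Scn1a, Scn8a, Scn3b and Scn4b for rm, and Scn1a, Scn3a and Scn3b for cm.

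The share of cells led by Scn3b was 0% without the cells with Sst at or above Pvalb (0 of 40 cells, which allows up to 7.5% by counting error only). Both cells led by Scn3b were among those left out, so this value followed from the split. The share led by Scn4b was 0.0% to 2.50% with 1 pool left out, since 1 cell decides it. Of the alternative rank correlations, 13 moved and 428 did not; 10 of these were on the authors' normalized values, which keep depth in, and 3 were without female P40. No paired analysis was possible because replicate numbers only name cells. Depth limits Scn3a and Scn4b most, whose median counts per cell were 10 and 12.5.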
